A study of Mus musculus with 6 samples.

Results

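The genes examined here make, sense, move and remove cholesterol. They comprise 30 named genes, read through every probe set that the platform annotation assigns to exactly one of them. A probe set is a group of array probes designed against one transcript. With this rule 28 of the 30 genes were measured, by 63 of the 45037 probe sets tested, and Acat2 and Nr1h2 had no such probe set. By role, 7 measured genes belong to the early mevalonate steps, 11 to the late sterol steps, 5 to the control of SREBP, and 5 to transport and turnover.

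Brain tissue without the cerebellum was profiled on 3 Affymetrix arrays from Gb5-deficient mice (Gb5ko, replicates 1 to 3) and 3 from wild-type mice (Gb5wt, replicates 4 to 6), 1 array per sample. The cohorts were littermates matched for age and sex per the labels, which state no age, strain or sex for an animal and not whether Gb5 was removed from every cell. The design calls the samples biological replicates. Gb5 is the G protein beta subunit encoded by Gnb5, and the comparison asks which transcripts differ in the brain when it is missing.

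Cholesterol does not pass from the blood into the brain in useful amounts, so brain cells make their own, above all oligodendrocytes during myelination and astrocytes afterwards. Acetyl units are joined through mevalonate into farnesyl diphosphate, which is condensed to squalene, closed into lanosterol and trimmed to cholesterol. SREBP transcription factors switch these genes on when sterol is scarce. SCAP escorts SREBP out of the endoplasmic reticulum, INSIG proteins hold the pair back, and neurons dispose of cholesterol by hydroxylating it.

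Promoters of 25 of the 30 genes were found in the RefSeq promoter table of mouse assembly GRCm38.p6, which gives 250 bases before and 50 after each start. Exact matches on either strand were sought for a sterol regulatory element, TCACNCCAC, for CCAAT, the letters that NF-Y recognises, and for GGGCGG, those of Sp1. In Hmgcs1, the one gene with the sterol element, no CCAAT overlapped it. CCAAT was present for 21 of the 25 genes (84.0%) against 41.1% of the 27025 genes in the table, and GGGCGG for 22 (88.0%) against 38.2%. All 9 late sterol genes in the table held CCAAT, as did 6 of 7 early mevalonate genes and 4 of 5 SREBP control genes, while 2 of 4 transport genes did. TCACNCCAC occurred in 1 of the 25, Hmgcs1, against 1.44% of all genes. A match is a string of letters and not a shown binding site, and these strict letters miss variants of the element. The 250 bases before the start are printed for Hmgcs1, the gene with the sterol element, and for Mvk and Insig2, whose brightest probe sets gave the largest positive and the largest negative difference among the genes. Capitals mark the sterol element, which spans 9 letters, and CCAAT, which reads ATTGG where it lies on the opposite strand.
Hmgcs1 (chr13:119690101-119690350, plus strand): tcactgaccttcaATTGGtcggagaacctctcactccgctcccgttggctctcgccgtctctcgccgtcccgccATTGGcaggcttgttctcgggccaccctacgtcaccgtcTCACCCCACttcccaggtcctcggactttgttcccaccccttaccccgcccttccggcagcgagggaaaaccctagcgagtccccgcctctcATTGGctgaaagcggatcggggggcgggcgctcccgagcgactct
Mvk (chr5:114444019-114444268, plus strand): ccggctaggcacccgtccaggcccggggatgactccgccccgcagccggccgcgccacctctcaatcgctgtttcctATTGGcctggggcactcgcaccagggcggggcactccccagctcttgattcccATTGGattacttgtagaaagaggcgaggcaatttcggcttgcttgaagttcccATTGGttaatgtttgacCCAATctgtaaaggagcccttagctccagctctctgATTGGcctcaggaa
Insig2 (chr1:121332590-121332839, minus strand): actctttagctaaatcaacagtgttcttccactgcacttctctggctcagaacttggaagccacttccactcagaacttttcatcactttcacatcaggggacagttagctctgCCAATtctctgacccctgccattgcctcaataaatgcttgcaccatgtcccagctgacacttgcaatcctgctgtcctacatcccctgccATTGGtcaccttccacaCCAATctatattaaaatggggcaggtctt

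Hmgcs1 held CCAAT 3 times before its start and once more after it, Mvk 5 times and this Insig2 start 3 times. The other 2 Insig2 starts in the table held none. Since 21 of the 25 genes held CCAAT, its presence in both Mvk and Insig2 says nothing about the direction of a difference.

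The deposited values are log2 intensities normalised by RMA, so a difference of 1 is a doubling. Gnb5 itself read 3.67, 3.00 and 3.56 on the Gb5ko arrays against 8.79, 8.98 and 9.30 in wild-type brains (limma adjusted p = 4.48e-06), low on each array labelled knockout. Neuronal markers, 10 of 10 measured, lay at a median percentile of 98.0 of all probe sets. Their mean per array ran from 12.02 to 12.10 in knockouts and from 12.03 to 12.06 in wild-type mice. That mean covers opposite shifts, since 2 were higher and 2 lower without overlap (40.0%, against 25.1% of all genes). Snap25 and Gad1, both at -0.33, were lower, and Stmn2 at 0.17 and Slc17a7 at 0.27 were higher. In such bulk tissue, fewer cells of a type and less RNA per cell cannot be told apart. Knockout replicate 1 had 57.4% of all 18193 genes above the knockout mean, against 45.2% and 44.4% in the other knockouts. Sex-linked transcripts differed between arrays of one genotype. Xist, made from the inactive X, read 10.65, 8.31 and 10.62 on the Gb5ko arrays and 4.96, 10.81 and 10.70 on the Gb5wt arrays, and the Y-linked Eif2s3y read 2.96, 11.28 and 6.97 against 11.26, 6.05 and 4.05. Xist was thus lowest in wild-type replicate 4. Knockout replicate 2 had an Xist value between that one and those of the other arrays, beside a high Eif2s3y value. The part of sex in the differences below was not tested. Gh, the pituitary growth hormone gene, read 10.62 in knockout replicate 3 and at most 6.21 elsewhere.

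Most member probe sets, 52 of 63, lay above the median level of all probe sets, and none was called different between genotypes. None of the 63 member probe sets passed limma's adjusted threshold of 0.05, against 0.0266% of all 45037 (0.022% of genes by brightest probe set), and none passed 0.1, against 0.0977%. Adjusted p values ran from 0.213 to 0.981. At an unadjusted p under 0.05 there were 13 (20.6%), 9 higher and 4 lower in knockouts, against 14.4% of all probe sets, 8.09% higher and 6.33% lower. The 9 became 4 without knockout replicate 1, 5 without wild-type replicate 4 and 3 without wild-type replicate 6. The genotypes did not overlap at 17 (27.0%), 10 higher and 7 lower, against 21.5%, 12.5% and 8.95% of all probe sets. The standard errors of these differences ran from 0.0937 to 0.18 with a median of 0.117. The differences themselves ran from -0.43 to 0.39. Larger ones elsewhere also missed the adjusted threshold of 0.05. Me1, a lipid gene outside the list, differed by 0.70 ± 0.157 (limma adjusted p = 0.193). The dimmer Gnb5 probe set differed by -0.98 ± 0.19 (limma adjusted p = 0.173). With 3 against 3 arrays, the lack of calls thus does not show that shifts of the size seen here are absent.

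Read by the brightest probe set of each gene, 21 of the 28 genes had a positive difference, knockout minus wild type, and 7 a negative one. The median was 0.12, where the median of all 18193 genes was 0.05. How many of all genes had a positive difference was not counted. Over all 63 member probe sets, 38 differences were positive. At an unadjusted p under 0.05, 8 genes (28.6%) stood out against 15.6% of all genes: 6 were higher against 9.89% of all genes, and 2 lower against 5.68%. Without knockout replicate 1 the 6 became 2, without knockout replicate 2 they became 5, and without wild-type replicate 4 or wild-type replicate 6 they became 3. The 2 lower genes became 1 on leaving out any array other than knockout replicate 3. The genotypes did not overlap at 10 genes (35.7%), 7 higher and 3 lower, against 25.1%, 16.1% and 9.01% of all genes. All 28 of these probe sets lay above the median level of 5.83, at percentiles from 68.6 to 99.8. Taking the brightest set of each gene raises these percentiles, and the same share over all genes was not counted. Brightness depends on the probes as well as on the transcript, so these percentiles rank probe sets and not genes.

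**Figure D1:**
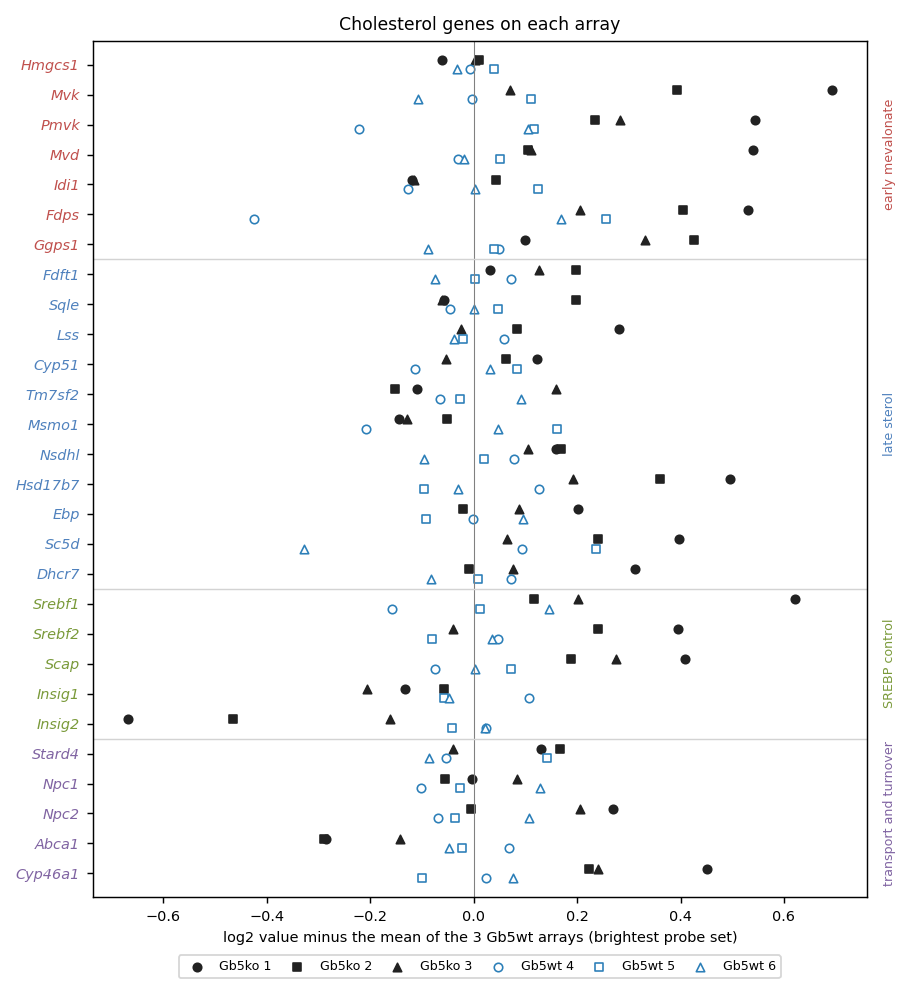
Each row is a gene, read by its brightest probe set, and each point an array, as the log2 value minus the mean of the 3 wild-type arrays (filled, knockout; open, wild type). Knockout replicate 1 is the rightmost knockout point for Mvk, Pmvk, Mvd, Fdps and Srebf1 and the leftmost for Insig2.

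Among the early mevalonate genes, the kinases and the decarboxylase that turn mevalonate into isopentenyl diphosphate had positive differences, none past the adjusted threshold, while the probe sets of Hmgcs1 upstream ran from -0.25 to 0.10. The group had 5 of 7 positive differences by brightest probe set, and 10 of 18 over all its probe sets. Its median by brightest probe set was 0.29, the highest of the 4 roles. Its median stayed between 0.23 and 0.33 with any 1 array left out. Hmgcs1, which makes HMG-CoA and opens the pathway, read at its brightest probe set, near the top of the array's scale, 13.30, 13.37 and 13.37 in knockouts against 13.36, 13.41 and 13.33 in wild-type mice, a difference of -0.02 (95% interval -0.23 to 0.20). The other 4 Hmgcs1 probe sets differed by -0.25, -0.23, -0.05 and 0.10, and at the one with -0.23 every knockout array was lower.

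Mvk, mevalonate kinase, read 8.29, 7.99 and 7.67 in knockouts against 7.59, 7.71 and 7.49 in wild-type mice. Knockout replicate 3 fell inside the wild-type range, and the other knockouts lay above it. The difference was 0.39 ± 0.156 (SE; limma adjusted p = 0.315), with means of 7.98 ± 0.311 (SD, n = 3) and 7.59 ± 0.11 (SD, n = 3). Without knockout replicate 1 it was 0.23. The other Mvk probe set differed by 0.21.

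Pmvk, which adds the second phosphate, read 10.24, 9.93 and 9.98 in knockouts against 9.48, 9.82 and 9.80 in wild-type mice. Every knockout array lay above every wild-type array, by a margin of less than the spread inside either group. The difference was 0.35 ± 0.134 (limma adjusted p = 0.291), and 0.24 without wild-type replicate 4. Mvd, the decarboxylase, read 8.87, 8.43 and 8.44 against 8.30, 8.38 and 8.31, again without overlap, at 0.25 ± 0.134 (limma adjusted p = 0.415). Only knockout replicate 1 was well clear of the wild types in Mvd, and without that array the difference was 0.11.

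Fdps, which builds farnesyl diphosphate, read 9.41, 9.29 and 9.09 in knockouts against 8.46, 9.14 and 9.05 in wild-type mice, a difference of 0.38 ± 0.18 (limma adjusted p = 0.369). The low value of wild-type replicate 4 set much of it, since the difference without that array was 0.17. Ggps1 makes geranylgeranyl diphosphate, the lipid anchor of G protein gamma subunits and of many small GTPases, on a branch that leaves the sterol route. It read 9.24, 9.56 and 9.47 against 9.18, 9.18 and 9.05, without overlap, at 0.29 ± 0.115 (limma adjusted p = 0.315).

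Idi1, the isomerase between these steps, differed by -0.06 at its brightest probe set. Its other probe set, nearly as bright, had the smallest p of all 63. It read 10.50, 10.65 and 10.55 in knockouts against 11.07, 11.03 and 10.85 in wild-type mice, lower without overlap by -0.41 ± 0.106 (unadjusted p = 0.00342, limma adjusted p = 0.213). It was singled out after its values were seen. The readings of this gene thus disagreed by more than either standard error.

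In the late sterol steps, from squalene to cholesterol, most enzymes differed by little at their brightest probe sets. The group had 9 of 11 positive differences and a median of 0.11, and 16 of its 24 probe sets were positive. An unadjusted p under 0.05 was met by 1 gene (9.09%), against 15.6% of all genes. It was met by 3 of the 24 probe sets (12.5%), 2 higher and 1 lower, against 14.4% of all probe sets. Without knockout replicate 1 the median was 0.03. Hsd17b7, the 3-ketosteroid reductase of C4 demethylation, read 10.20, 10.06 and 9.90 in knockouts against 9.83, 9.61 and 9.67 in wild-type mice. The knockouts lay above the wild types without overlap, and the difference was 0.35 ± 0.117 (limma adjusted p = 0.264). This probe set is of the kind named _x_at, in which some probes also match other sequences, and the other 3 for the gene were dim, at means of 3.32 to 4.28 in wild-type mice, with differences of -0.21, 0.10 and 0.07.

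Nsdhl, which removes the C4 carboxyl group, read 9.76, 9.77 and 9.70 in knockouts against 9.67, 9.62 and 9.50 in wild-type mice. The groups did not overlap, but the difference was only 0.14 ± 0.0984 (limma adjusted p = 0.523). Nsdhl and Ebp lie on the X chromosome, and the part of sex in their values was not tested. Fdft1, squalene synthase and the first enzyme committed to sterols, differed by 0.12 at its brightest probe set, an _x_at set. Its second probe set read 10.79, 10.82 and 10.46 against 10.32, 10.42 and 10.28, higher without overlap by 0.35 ± 0.122 (limma adjusted p = 0.27).

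Sc5d, the desaturase of the sterol ring, gave opposite readings. Its brightest probe set read 9.60, 9.44 and 9.27 in knockouts against 9.30, 9.44 and 8.87 in wild-type mice, a difference of 0.23 ± 0.159 (limma adjusted p = 0.518) with overlap, which was 0.07 without wild-type replicate 6, 0.15 without knockout replicate 1 and 0.35 without wild-type replicate 5. A dimmer set read 6.61, 6.44 and 6.48 against 6.92, 6.71 and 7.08, lower without overlap by -0.39 ± 0.121 (limma adjusted p = 0.249). Sc5d and Scap lie on chromosome 9, as Gnb5 does.

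The remaining 7 late enzymes differed by -0.11 to 0.13 at their brightest probe sets and overlapped between genotypes. Sqle, the squalene epoxidase, differed by 0.03 (95% interval -0.22 to 0.27). Cyp51, the lanosterol demethylase, differed by 0.04 (-0.19 to 0.28), and Lss, which closes the ring, by 0.11 (-0.14 to 0.36). Msmo1, the C4 methyl oxidase, differed by -0.11, Tm7sf2, a sterol reductase, by -0.03, Ebp, the sterol isomerase, by 0.09 and Dhcr7, which makes the last reduction, by 0.13. These intervals leave room for small shifts in either direction.

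Among the genes that control SREBP, those for the factors and their escort had positive differences and the genes for both retention proteins negative ones, 3 and 2 with a median of 0.20, and none passed the adjusted threshold. The median was 0.10 without knockout replicate 1 and 0.30 without knockout replicate 3. Srebf1, whose product favours fatty acid genes, read 8.09, 7.59 and 7.67 in knockouts against 7.31, 7.48 and 7.62 in wild-type mice, at 0.31 ± 0.15 (limma adjusted p = 0.374). Srebf2, whose product favours sterol genes, read 9.83, 9.67 and 9.39 against 9.48, 9.35 and 9.47, at 0.20 ± 0.127 (limma adjusted p = 0.494). Both overlapped between genotypes, and knockout replicate 1 was highest in both. Without it the difference was 0.16 for Srebf1 and 0.10 for Srebf2, and without knockout replicate 3 it was 0.32 for Srebf2.

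Scap, the escort, read 10.36, 10.14 and 10.23 in knockouts against 9.88, 10.03 and 9.95 in wild-type mice. It was higher on every knockout array, by 0.29 ± 0.105 (limma adjusted p = 0.279). Its other probe set was dim and differed by 0.13.

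Insig2, the retention protein whose gene is less tied to SREBP, read 8.61, 8.81 and 9.12 in knockouts against 9.30, 9.24 and 9.30 in wild-type mice. The wild types were tightly grouped, at 9.28 ± 0.0373 (SD, n = 3), and the knockouts spread below them, at 8.85 ± 0.255 (SD, n = 3). The difference of -0.43 ± 0.135 (limma adjusted p = 0.251) was the largest of the 28 genes in size. It was -0.31 without knockout replicate 1 and -0.57 without knockout replicate 3. Other Insig2 probe sets differed by -0.12 and -0.03. Insig1, itself an SREBP target, read 12.13, 12.21 and 12.06 against 12.37, 12.21 and 12.22, with knockout replicate 2 and wild-type replicate 5 equal to 2 decimals, at -0.13 ± 0.102 (limma adjusted p = 0.571).

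**Figure D2:**
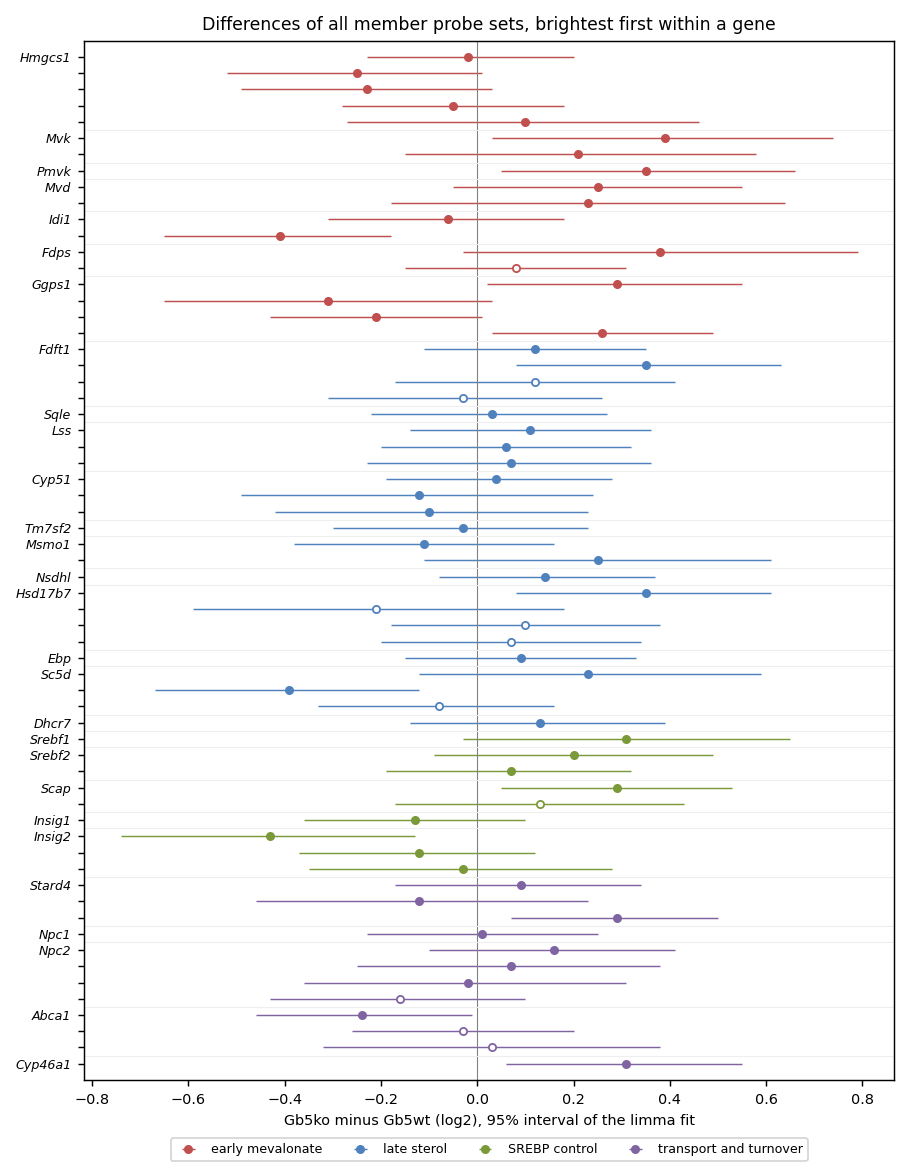
The differences of all 63 member probe sets are plotted in log2 units as knockout minus wild type, with bars for the 95% interval of the limma fit and colours for the 4 roles. Filled points lie above the median level of all probe sets and open points below it. Both signs occur among the sets of Ggps1, Sc5d, Stard4 and Hmgcs1.

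Transport and turnover genes went both ways, with 4 of 5 positive and a median of 0.09, which was 0.01 when all probe sets of a gene were averaged. Of their 12 probe sets, 7 had positive differences. Cyp46a1 encodes the neuronal cholesterol 24-hydroxylase, whose product leaves the brain. It read 11.06, 10.83 and 10.85 in knockouts against 10.63, 10.51 and 10.68 in wild-type mice. Every knockout array was higher, by 0.31 ± 0.109 on average (limma adjusted p = 0.277). Abca1, the pump that loads cholesterol onto lipoprotein particles, read 8.96, 8.95 and 9.10 against 9.31, 9.22 and 9.19. Every knockout array was lower, by -0.24 ± 0.0997 on average (limma adjusted p = 0.326), and the other 2 Abca1 probe sets, below the median level, differed by -0.03 and 0.03.

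Transcripts of the remaining carriers overlapped between genotypes at their brightest probe sets. Npc2, which hands cholesterol to Npc1 in the lysosome, read 11.79, 11.52 and 11.73 against 11.45, 11.49 and 11.63, at 0.16 ± 0.113 (limma adjusted p = 0.543), or 0.10 without knockout replicate 1. Npc1 itself differed by 0.01 (95% interval -0.23 to 0.25). Stard4, a carrier of sterol between membranes, differed by 0.09 ± 0.111 (limma adjusted p = 0.759) at its brightest probe set. The dimmest set of Stard4 read 6.23, 6.23 and 6.20 against 5.94, 5.99 and 5.88, higher without overlap by 0.29 ± 0.0939 (limma adjusted p = 0.262).

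Probe sets of the same gene often differed in sign, in some genes only near 0. Of 14 genes with more than 1 probe set above the median level, 7 had differences of one sign and 7 of both signs. In Ggps1 the sets at 0.29 and 0.26 stood against others at -0.31 and -0.21. The gap between the sets at 0.29 and -0.31 was 1.33, 1.29 and 1.49 in knockouts against 0.55, 0.92 and 0.86 in wild-type mice, with no overlap. For Sc5d the gap was 2.99, 3.01 and 2.79 against 2.38, 2.73 and 1.80, again with no overlap. The Stard4 gap did not overlap either, while those of Hmgcs1, Msmo1, Cyp51 and Npc2 did. The most positive and most negative sets lay at 0.04 and -0.12 for Cyp51, and at 0.16 and -0.02 for Npc2. How often signs differ over all genes was not counted. Because these pairs were taken for their opposite signs, the gaps describe the disagreement and were not tested. Which part of each transcript a probe set reads was not used here, so a gene's direction in this list is that of the probe set named.

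The genes did not vary as one block between arrays of the same genotype. With genotype means removed, Pearson correlations over the 6 arrays, which keep 4 degrees of freedom, had a median of 0.07 over 378 pairs of genes, and 54.5% were positive. Over all pairs of the 18193 genes the median was 0.01 and 50.7% were positive. Within roles the medians were 0.29 for early mevalonate, 0.06 for late sterol, -0.36 for SREBP control and -0.16 for transport and turnover. Single pairs ran from -0.99 to 0.95, and all pairs share the same 6 arrays and their normalisation, so no pair is given as a result. With all probe sets of a gene averaged, the early mevalonate median was 0.21. When those averages were centred on the mean of all 6 arrays instead, the early mevalonate median was -0.26, so its sign depended on how genes were read and centred.

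**Figure D3:**
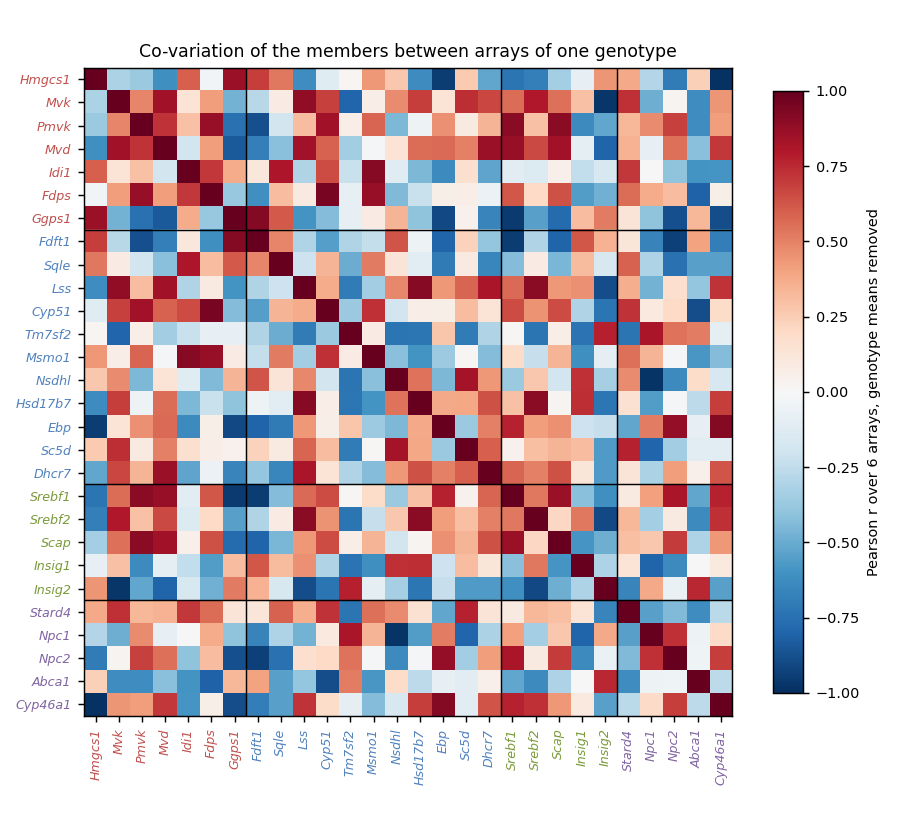
Pearson correlations between the 28 genes over the 6 arrays, after the mean of each genotype was removed, are shown by colour from -1 to 1, with lines between the 4 roles. Red and blue squares occur in every block, and the early mevalonate block has a median of 0.29.

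Knockout replicate 1 had 18 of the 28 genes (64.3%) above their knockout mean, replicate 2 had 15 (53.6%) and replicate 3 had 8 (28.6%), where 57.4%, 45.2% and 44.4% of all genes lay above theirs. The wild-type replicates 4, 5 and 6 had 42.9%, 60.7% and 53.6%, against 49.9%, 52.7% and 49.3% of all genes. Of the 7 early mevalonate genes, 4, 5 and 2 lay above the knockout mean on the Gb5ko arrays, where wild-type replicates 4, 5 and 6 had 1, 7 and 3 above theirs. Taken against the wild-type mean, the median early mevalonate gene stood at 0.53, 0.23 and 0.11 in knockout replicates 1, 2 and 3, and the median SREBP control gene at 0.40, 0.12 and -0.04. Late sterol genes stood at 0.16, 0.08 and 0.07.

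Markers of other brain cells moved between the same arrays. Oligodendrocyte markers, 13 measured, all had a negative difference, from -0.59 in Cldn11 to -0.0 in Gjb1, with a median of -0.25. Of these, 0 passed limma's adjusted threshold. At an unadjusted p under 0.05 there were 3, all lower (23.1%, against 15.6% of all genes, 5.68% lower). Their mean level ran from 9.13 to 9.74 in knockouts and from 9.53 to 9.97 in wild-type mice. Their median gene stood at -0.53, -0.40 and 0.04 in knockout replicates 1, 2 and 3. Knockout replicate 1 had the highest early mevalonate, late sterol and SREBP control medians of the 6 arrays. It also had the lowest medians of both oligodendrocyte and astrocyte markers. Astrocyte markers, 9 measured, had 6 negative differences and a median of -0.09. At that unadjusted level there were 4 (44.4%), 3 lower and 1 higher. The median astrocyte marker stood at -0.29, -0.13 and 0.03 in knockout replicates 1, 2 and 3. Microglial markers, 8 measured, had 6 positive and a median of 0.24, with a mean level from 7.49 to 7.59 in knockouts and from 7.31 to 7.41 in wild-type mice. Meningeal fibroblast markers, 6 measured, were all negative with a median of -0.29. Of these 6 markers, 3 were lower and 0 higher at an unadjusted p under 0.05, and 4 were lower without overlap. Their mean level ran from 7.61 to 7.72 in knockouts and from 7.95 to 8.06 in wild-type mice, also without overlap. All 5 pituitary markers were positive with a median of 1.05, carried by knockout replicate 3. The pituitary mean level was 8.03 there, against 5.21 and 4.69 in the other knockouts and 4.56 to 5.69 in wild types. The medians were 0.15 for oligodendrocyte precursors, -0.12 for endothelium, -0.10 for choroid plexus and -0.18 for blood. No marker in these lists passed limma's adjusted threshold. The part of these cells in the differences of the cholesterol genes was not tested.

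**Figure D4:**
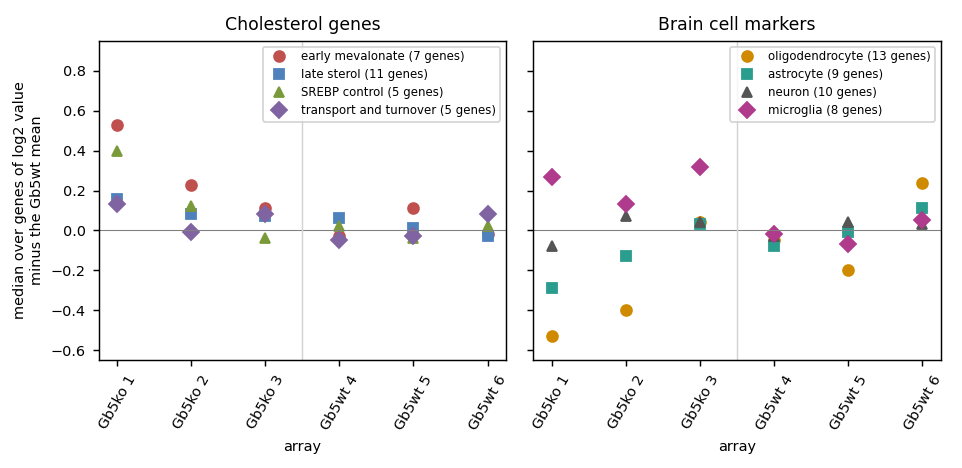
Each point is the median over the genes of a list of the log2 value minus the wild-type mean, for each of the 6 arrays, with cholesterol roles at left and cell markers at right. Knockout replicate 1 has the highest early mevalonate point, 0.53, and the lowest oligodendrocyte and astrocyte points, -0.53 and -0.29.

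Other genes of the pathway gave no calls either. Of 14 further transport and turnover genes, 0 had an unadjusted limma p under 0.05, with Mylip, a ligase that removes lipoprotein receptors, at -0.29, the sterol exporter Abcg4 at 0.25 and the endosomal carrier Stard3 at 0.15. Of 7 genes listed under SREBP processing 1 was lower at that level (14.3%, near the 15.6% of all genes), the site-2 protease Mbtps2 at -0.26. The site-1 protease Mbtps1 was at 0.19. Ubxn8 was at 0.18, and its place in that list was not examined. Of 17 lipid genes that SREBP drives outside sterol synthesis, 3 were higher and 3 lower at that level (35.3%, against 15.6% of all genes, 9.89% higher and 5.68% lower), and 0 passed the adjusted threshold. Me1, malic enzyme, which supplies reducing power for lipid synthesis, was the furthest from 0. It read 9.85, 9.78 and 10.35 in knockouts against 9.16, 9.42 and 9.29 in wild-type mice, higher without overlap by 0.70 ± 0.157 (limma adjusted p = 0.193), and it lies on chromosome 9, as do Abcg4 and Elovl5, a fatty acid elongase at 0.04. Acaca, which commits acetyl units to fatty acids, was at 0.31 ± 0.0995 and Lpin1, a phosphatidate phosphatase, at -0.33 ± 0.107. The medians of the 3 lists, 0.02, -0.04 and 0.04, lay near the 0.05 of all genes.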

How the data were processed

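The 6 arrays, 3 per genotype, were compared. The deposited table holds log2 expression values, made by the authors with RMA and Partek per the submitters' processing notes, with no version given. RMA subtracts background and equalises array distributions, and can compress differences of dim probe sets. The values were not normalised again. With 3 arrays a side, precision is limited by their number.

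Of 45101 probe sets, 64 controls were left out and 45037 entered lmFit and eBayes (limma 3.58.1, R 4.3.3), two-sided, with p adjusted by Benjamini-Hochberg over the whole table. The annotation gave 1 gene to 34945 probe sets, several to 932 and none to 9160, and Entrez identifiers matched all 28 measured genes to RefSeq.

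The genes, roles, marker lists and motifs were chosen with earlier results of these data known. Genes named with full statistics are the 4 of smallest p in each role plus any whose genotypes do not overlap, and the 3 of smallest p in each further list. Further probe sets of these genes were singled out with their values in view. The alternatives were filters, normalisation, eBayes settings, array weights, thresholds, readings of a gene and each array left out. Figures used matplotlib 3.10.9.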

Additional observations from a re-analysis of the deposited data

How the results depend on the processing

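No paired analysis was possible because the knockouts are numbered 1 to 3 and the wild types 4 to 6. No member probe set passed the adjusted threshold of 0.05 under any filter, normalisation, eBayes setting, weighting or array left out, nor at an adjusted p under 0.1. An unadjusted p under 0.05 gave 13 probe sets and 8 genes, by its looser construction. With 1 array left out, higher probe sets at that level numbered 3 to 11, lower ones 3 to 6, higher genes 2 to 7 and lower genes 1 to 2. Array weights left 1 lower gene, and the cause was not tested. Role medians with 1 array left out ran from 0.23 to 0.33 for early mevalonate, 0.03 to 0.14 for late sterol, 0.10 to 0.30 for SREBP control and 0.04 to 0.14 for transport and turnover. The transport median was 0.01 when each gene was read by its most variable probe set, and also by the mean of its probe sets. The 18 named genes kept their sign in all 198 alternative fits of their brightest probe sets, and over all 63 probe sets 43 of 682 values had another sign, all from differences of at most 0.12 in size. Signal over background was not measured here, which limits what dim sets show.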
